A study of Mus musculus with 6 samples.

Results

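The dystrophin complex and the repair of the muscle fibre membrane were followed through 8 genes in injured mouse quadriceps. These were Dmd, Utrn, Dag1, Sgca, Sgcb, Sgcd, Lama2 and Dysf, chosen by symbol, and all 8 were among the 14016 genes of the deposited RNA sequencing table. Muscle came from 3 WT mice and 3 ΔdblGATA mice, GATA-1 mutant in the labels, 7 days after volumetric muscle loss without an ECM implant. The WT mice were young adult female C57BL/6. The mutants carry a deletion in the promoter of Gata1 in all their cells and lack eosinophils, and their strain background and age are not given in the sources used here. Whole quadriceps RNA with a poly(A) tail was sequenced, so all cell types of the wound contribute to each value.

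Dystrophin is a long rod-shaped protein that ties the actin cytoskeleton of the fibre to dystroglycan in the membrane. Dystroglycan in turn binds laminin in the basement membrane through sugar chains on its outer part, and the sarcoglycans stabilise this link. Fibres that lack dystrophin or a sarcoglycan are prone to tear when they contract. Dysferlin belongs to another system, which reseals tears by fusing vesicles with the membrane, and its loss also causes muscular dystrophy.

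Each gene has 1 value in the data used here, the authors' mean log2 CPM (reads of the gene relative to all reads of the library, on a log2 scale) over libraries of both genotypes. It carries no SD, no value per mouse could be compared, and the depth per library is unknown. How far the genotypes differed in these 8 genes was not analysed here, and no test was run. The differences between genes below are therefore descriptions without an error. Whether the mean covers exactly these 6 libraries is not given in the sources used here. The authors kept genes above 1 CPM, or 0 log2 CPM, in a minimum number of samples. Yet 1198 of the 14016 genes had a mean below 0 log2 CPM, the lowest at -4.08. If filter and mean cover the same 6 libraries, a mean below 0 needs values under 0 in some of them. Only the lowest means, such as -4.08, need far lower values there. Whether filter and mean cover the same libraries was not tested. Because a long transcript gives more reads than a short one at the same number of molecules, genes were compared as log2 CPM per kb, using the longest coding transcript of each gene. The median of the 13661 genes with such a length was 2.31 log2 CPM per kb.

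Markers of skeletal muscle, the labelled tissue, were present. All 8 fibre markers were listed, from 7.96 log2 CPM per kb for the myosin gene Myh2 to 13.77 for the actin gene Acta1. All 5 markers of regenerating muscle were listed too, from 0.22 for Pax7, a gene of muscle stem cells, to 6.26 for the perinatal myosin gene Myh8, and 4 of the 5 were above the median gene. Macrophage markers (4 of 4 listed, 3.01 to 8.72), fibroblast markers (4 of 4, 2.95 to 9.27) and endothelial markers (3 of 3, 3.07 to 4.63) were also present. Of 4 eosinophil markers (Prg2, Epx, Siglecf and Ccr3) 0 were listed, and Gata1 was not listed either, which leaves the labels of the genotypes unchecked. Fewer cells of a type and less RNA per cell cannot be told apart in such a sample.

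With the longest transcript the 8 genes fell into an upper and a lower set per length. Sgca, Dag1 and Sgcb stood at 6.24, 5.70 and 5.18 log2 CPM per kb, above the upper quartile of all genes at 3.79. Dysf lay between the sets at 3.51. Sgcd (2.40), Dmd (2.11), Lama2 (1.71) and Utrn (1.47) lay near or under the median gene. From Utrn to Sgca the levels per length spanned 4.78 log2 units, or 27.4-fold. In all, 5 of the 8 genes were above the median gene. With the shortest coding transcripts Sgcb at 5.18 fell between Utrn at 5.70 and Dmd at 5.12. Dag1 at 9.28 and Sgca at 8.54 still stood above all of them. As no replicate error is known, the order within each set, where neighbours were 0.24 to 0.54 apart, cannot be taken as a difference.

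**Figure D1:**
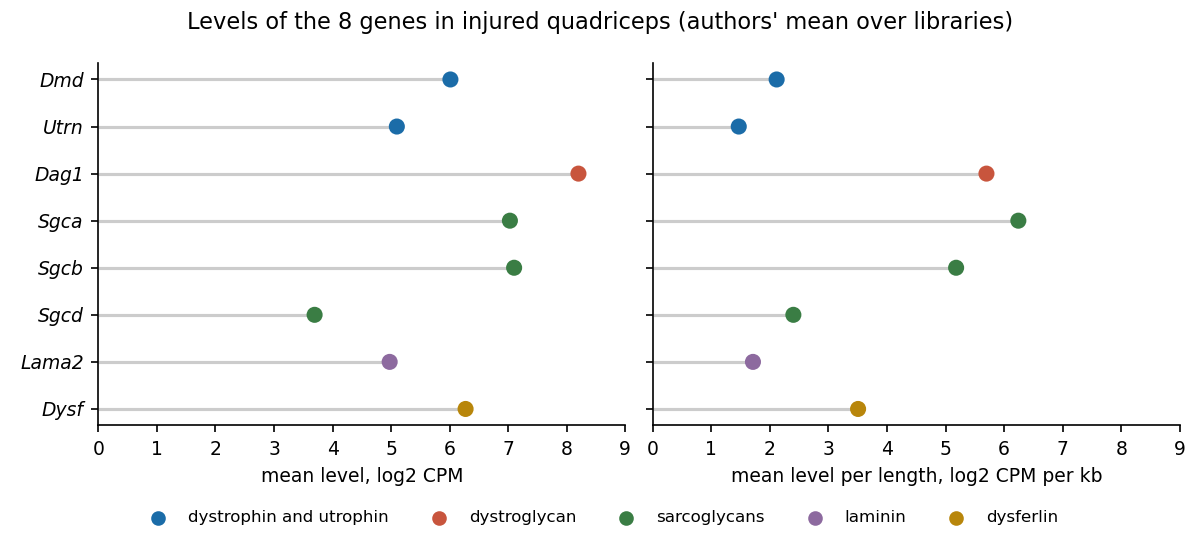
The authors' mean level of each of the 8 genes in injured quadriceps, without a correction for length (left, log2 CPM) and per length (right, log2 CPM per kb of the longest coding transcript), with points coloured by role and no error bars because the mean has no spread. Per length Sgca is highest at 6.24 and Utrn lowest at 1.47, and Dmd goes from 6.01 on the left to 2.11 on the right because its transcript is the longest of the 8.

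Dmd, which encodes dystrophin, lies on chromosome X of GRCm38 (82948870 to 85206141, plus strand). Its mean was 6.01 log2 CPM, a geometric mean of 64.6 CPM. Its longest coding transcript of 14910 nt has 79 exons, so the level per length was only 2.11, with 46.6% of genes lower on that scale. The annotation also holds coding transcripts of 4438 and 1858 nt with 18 and 17 exons. Of the 31-base words of these short forms, 98.9% and 95.8% also occur in the long transcript. The sum over the gene therefore does not show which form was present. If all reads came from the shortest form, the level per length would be 5.12.

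Utrn encodes utrophin, the close relative of dystrophin that sits at the nerve-muscle junction of mature fibres and along the membrane of regenerating ones. It lies on chromosome 10 (12382188 to 12869365, minus strand). Its mean of 5.10 log2 CPM, or 34.2 CPM, was spread over a transcript of 12382 nt with 74 exons, which gave 1.47 per kb, the lowest of the 8 genes, with 36.0% of genes lower. Dmd was 0.65 log2 units above Utrn per length, or 1.57-fold. With the shortest coding transcripts of both genes, of 1858 and 660 nt, the difference was -0.58 and so turned. The one of Utrn holds only 560 coding nt, against 10290 nt in the longest. Utrophin is also made in many other cell types, and the part of each in this value was not tested.

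Dmd and Utrn are paralogs, so the sequence they share was measured in words of 31 bases, the default of kallisto, whose setting here is not given in the sources used here. None of the 31-base words of the longest Utrn transcript occurs in any other annotated gene, and of the 14877 words of Dmd only 34 do, or 0.229%. The longest stretch that the longest transcripts of both genes share letter for letter is 25 bases, shorter than 1 such word. It lies in the coding sequence, in exon 67 of Dmd (chromosome X, 85110051 to 85110075, plus strand) and in exon 62 of Utrn (chromosome 10, 12441961 to 12441985, minus strand) of GRCm38. It is shown as the closest match between the genes, read 5′ to 3′ along both transcripts.
Dmd and Utrn shared stretch: cctttgggggcagtaacattgagcc

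Dag1 encodes the precursor that is cut into alpha-dystroglycan outside the cell and beta-dystroglycan in the membrane. It lies on chromosome 9 (108204634 to 108263958, minus strand). Its mean of 8.20 log2 CPM, or 294 CPM, came with a longest coding transcript of 5662 nt and 4 exons, and per length it stood at 5.70, with 92.7% of genes lower. Dag1 was 12.0-fold above Dmd and 15.9-fold above Lama2 per length, the genes of its partners inside and outside the fibre. With the other definitions of length these ratios ranged from 4.69 to 18.8 for Dmd and from 9.22 to 67.0 for Lama2. The 67.0 rests on the shortest Dag1 transcript of 472 nt, of which only 76 nt are coding. Dystroglycan is not confined to muscle fibres, so this ratio is one of the whole tissue.

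The sarcoglycan genes did not stand at one level. Sgca on chromosome 11 (94962791 to 94976327, minus strand) had a mean of 7.03 log2 CPM, or 130.6 CPM. Its transcript of 1724 nt has 11 exons and is the shortest of the 8, and its 6.24 per kb was the highest, with 95.1% of genes lower. Alpha-sarcoglycan, its product, is made almost only in striated muscle. Sgca overlaps Hils1 on the opposite strand, but none of its 31-base words occurs in another gene. Sgcb on chromosome 5 (73632749 to 73647790, minus strand) had 7.10 log2 CPM, or 137.3 CPM, over 3786 nt, of which only 960 nt are coding. Per length Sgcb reached 5.18. Counted over the coding sequence alone it reached 7.16, above Sgca at 6.81.

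Sgcd, the gene of delta-sarcoglycan, which smooth muscle also makes, was the low one of the sarcoglycans. It lies on chromosome 11 (46896253 to 47988969, minus strand), and its mean of 3.69 log2 CPM, or 12.9 CPM, was spread over a transcript of 2450 nt, which gave 2.40 per kb with 51.7% of genes lower. Sgca was 14.3-fold and Sgcb 6.87-fold higher. These gaps kept their direction under every length tried, from 7.54 to 46.5-fold for Sgca and from 4.53 to 9.59-fold for Sgcb. Only 34.3% of the 31-base words of the other coding transcript, of 1617 nt, occur in the longest one, which holds a shorter coding sequence (576 against 867 nt).
Sgce is the gene of epsilon-sarcoglycan, which takes the place of alpha-sarcoglycan outside striated muscle. Sgce is not one of the 8 genes and stood at 3.58 per kb. Sspn, the gene of sarcospan, stood at 4.60. Sgcz was not listed.

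**Figure D2:**
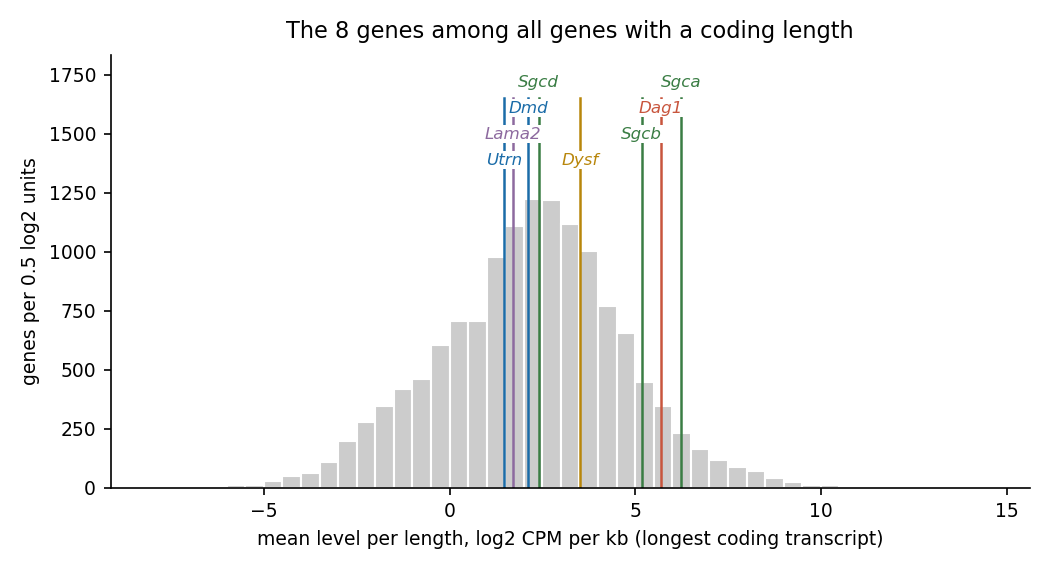
Number of genes (vertical axis) in bins of 0.5 log2 units of the mean level per length (horizontal axis, log2 CPM per kb) for the 13661 genes with a coding length, with a line for each of the 8 genes. Sgcb, Dag1 and Sgca lie in the upper flank between 5.18 and 6.24, and Utrn, Lama2, Dmd and Sgcd near the median of 2.31.

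Lama2 encodes the heavy chain of the laminin that surrounds muscle fibres and binds dystroglycan, and its loss causes a congenital muscular dystrophy. It lies on chromosome 10 (26980036 to 27619758, minus strand). Its mean was 4.98 log2 CPM, or 31.5 CPM, over 9614 nt and 65 exons, which gave 1.71 per kb with 39.9% of genes lower. It was in place 7 of 8 under all 4 definitions of length, the only gene of the 8 whose place did not move. Of its 31-base words 128, or 1.34%, also occur in Gm48084, an antisense gene that was not listed.
The chains that form trimers with the Lama2 chain were higher per length. Lamb1, Lamb2 and Lamc1 stood at 4.43, 4.83 and 4.87 per kb, which was 6.58-fold, 8.71-fold and 8.92-fold above Lama2. The size of these gaps depended on the length used, from 3.03 to 34.7-fold for Lamb1, from 8.71 to 52.9-fold for Lamb2 and from 6.62 to 16.5-fold for Lamc1. Of the other heavy chains, Lama4, which is found in vessels and other tissues, stood at 3.85, or 4.41-fold above Lama2 (1.55 to 4.76-fold over the lengths tried). Lama5 at 1.59 was close to Lama2 with the longest transcript. Lamb1, Lamb2 and Lamc1 pair with several heavy chains and are made by several cell types, whose part in these values was not tested. Lama1, the embryonic heavy chain, was lower at -5.05.

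Dysf, the gene of dysferlin, lies on chromosome 6 (84008590 to 84211060, plus strand). Its mean was 6.27 log2 CPM, or 77.3 CPM, over 6803 nt and 55 exons, and its level per length was 3.51, with 70.7% of genes lower. Of the 8 levels per length it was the one least affected by the definition of length. Its 12 coding transcripts are all between 6432 and 6803 nt long, and the level per length moved by only 0.10 log2 units. Its standing among all genes moved more, because the levels of other genes changed with the length. With the median transcript 61.5% of genes were lower, with the shortest 48.7% and with the coding sequence 53.1%. Of its 31-base words 341, or 5.03%, occur in the antisense genes Gm15475 and Gm33024, which were not listed, the largest such share among the 8 genes. Dysf was 10.3-fold above its paralog Myof, the gene of myoferlin, which myoblasts use in fusion and which stood at 0.14 per kb. With the shortest coding transcripts the difference was -0.047 log2 units.

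**Figure D3:**
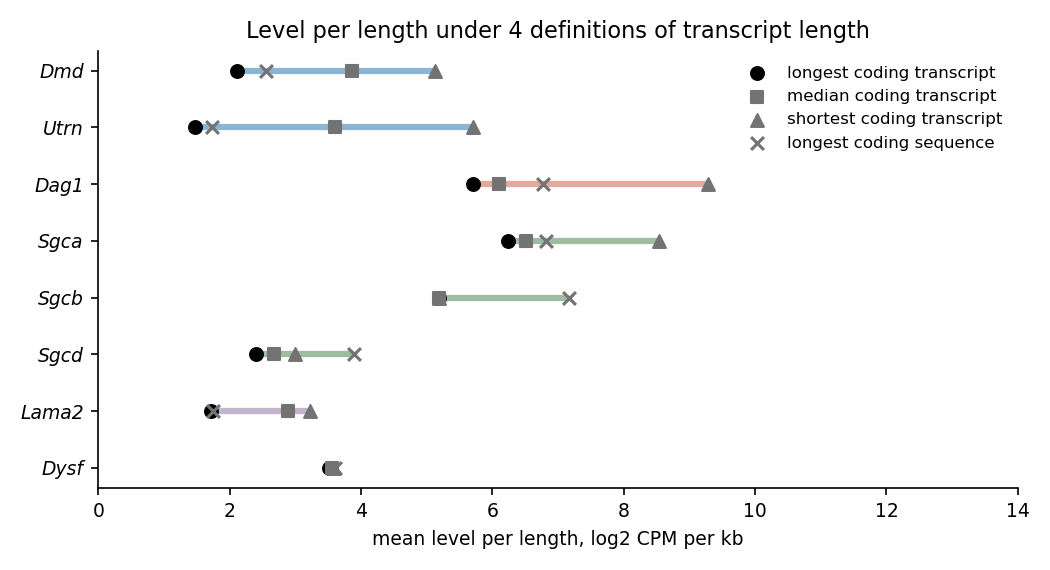
Level per length (horizontal axis, log2 CPM per kb) of each of the 8 genes when divided by the longest, the median or the shortest coding transcript or by the longest coding sequence without UTRs (symbols), with a bar from the lowest to the highest value. The bar is 0.10 wide for Dysf and 4.23 for Utrn, whose upper end rests on a transcript of 660 nt with 560 coding nt. The place of Utrn and Dmd thus depends on which transcript the reads came from.

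The partners of the complex were read from lists of the pathway, as counts and medians beside the 2.31 of all genes. The highest and lowest gene of each list are given for the longest transcript, and other lengths changed some of them. The 8 genes themselves had a median of 2.95. Of 6 genes for proteins that bind dystrophin or lie beside it on the inner side of the membrane 5 were listed, with a median of 2.23. Cav3, the caveolin gene of muscle, was highest at 6.02. Dtna, the gene of alpha-dystrobrevin, stood at 3.01 and Nos1, whose enzyme makes nitric oxide at the membrane, at 1.70. Dtnb, the dystrobrevin gene mainly of other tissues, was lowest at 0.15, and Sntb2 was not listed.

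The enzymes that build the laminin-binding sugar chain of dystroglycan were lower than Dag1 per length. Of 10 genes 8 were listed, with a median of 2.47, and 5 of the 8 were above the median gene. B3galnt2 was highest at 4.39, still under Dag1 at 5.70, with Pomgnt1 (4.37) close to it. Pomt2, one of the enzymes that attach the first mannose, was lowest at 1.18. Large2 and B4gat1 could not be matched to a listed symbol.

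Genes of the basement membrane and its receptors (12 of 12 listed) had a median of 4.32, and 10 of them were above the median gene. Itgb1, the beta chain of many matrix receptors, was highest at 6.66. Itga7, the partner chain that forms the other main laminin receptor of fibres, stood at 4.21. Genes for membrane repair beside Dysf (17 of 17 listed) had a median of 5.50, and 16 of them were above the median gene, Myof being the exception. Trim72, whose muscle protein gathers vesicles at a tear, was highest at 7.47 with the longest transcript but not with the other lengths. Capn3, the muscle calpain gene, stood at 5.11. Dysf at 3.51 was therefore below all of these repair genes except Myof on the scale per length. Annexins and Ahnak are abundant in macrophages, fibroblasts and vessels as well as in fibres, and the share of each cell type was not tested.

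**Figure D4:**
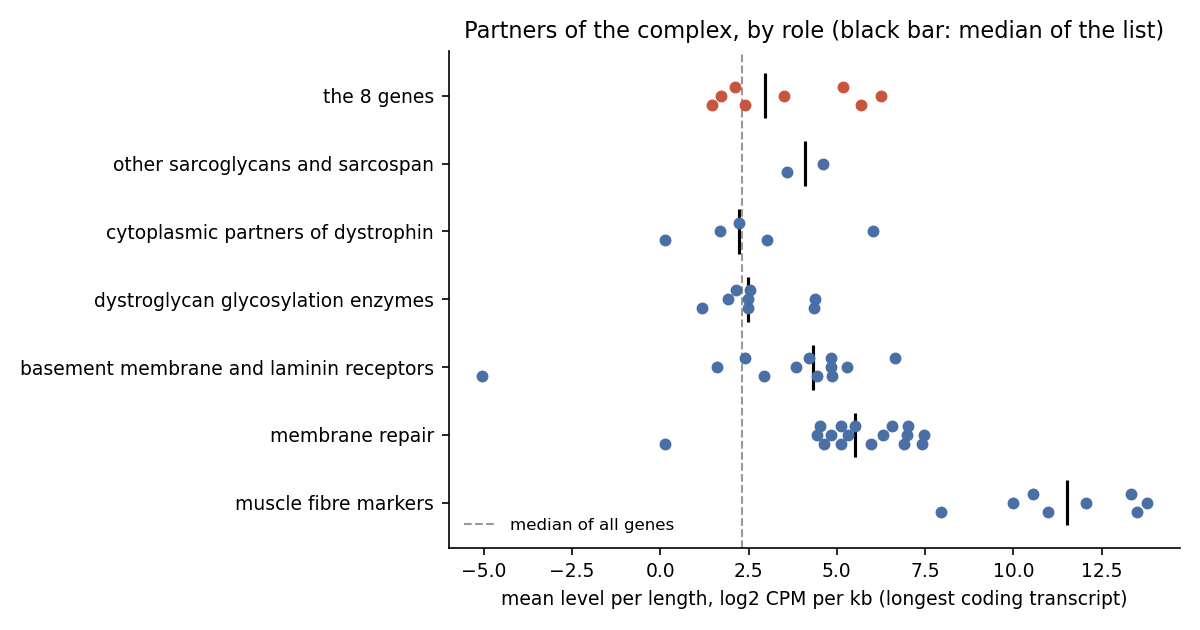
Mean level per length (horizontal axis, log2 CPM per kb) of each listed gene (points) in the 8 genes and in 6 lists by role (rows), with a black bar at the median of each list and a dashed line at the median of all genes, 2.31. Membrane repair genes centre on 5.50, under Sgca and Dag1, and each of the muscle fibre markers, which centre on 11.53, lies above all of the 8 genes.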

How the data were processed

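Paired-end reads of injured quadriceps from 3 WT and 3 GATA-1 mutant mice were pseudoaligned by the authors with kallisto and summed to genes. The authors then used edgeR for CPM values, required more than 1 CPM in 3 or more samples, applied a log transformation and TMM normalization, and fitted limma. The labels name the genome build GRCm39. The transcript index is not given in the sources used here. Of the deposited table only the authors' mean log2 CPM of each gene was used. Its other columns hold the authors' own comparison of the genotypes (log fold changes, moderated t, p-values and log odds) and were not used. The limma test planned here for values per mouse was therefore not run. The depth per sample is unknown.

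Symbols were matched to GENCODE M21 (GRCm38), 472 of them through an older symbol carried by only 1 RefSeq gene, which gave a coding length for 97.5% of genes. The level per length is the mean log2 CPM minus log2 of the length of the longest coding transcript in kb. Coordinates are of GRCm38 and come from that annotation. Shared 31-base words were counted on either strand against all M21 transcripts. The arithmetic was checked on simulated data (Python 3.11.15, pandas 2.3.3). These were drawn with the same lengths that were then divided out, so the check cannot show which transcript the reads came from. Named were the 8 genes, the highest and lowest of each list and fixed partners of the 8 genes. Pomgnt1, Lama5, Ahnak, genes not listed and overlapping genes were named after their values were seen. The 8 genes and the lists were chosen with earlier results of these data known. Some genes of the pathway lists are not reported here.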

Additional observations from a re-analysis of the deposited data

How the results depend on the processing

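No paired analysis was possible because the values used hold no column per mouse. For the same reason the planned limma fits with another pseudocount, a filter on low values, the replicate block and each mouse left out were not run. What remains is the choice of length. The median of the 8 genes lay 0.65 log2 units above that of all genes with the longest coding transcript, 0.88 with the median, 1.47 with the shortest and 0.33 with the coding sequence. The span from the lowest to the highest gene was 4.78, and 3.85, 6.28 and 5.43 with these alternatives. The number of genes above the median gene stayed between 5 and 7, but these were not always the same genes. With the shortest transcript Dysf and Sgcd fell below the median gene, with 48.7% and 40.9% of genes lower. Dmd and Utrn rose above it with that length, with 69.4% and 76.5% of genes lower. Sgca, Dag1 and Sgcb were the top 3 with the longest and median transcripts and the coding sequence, while with the shortest transcript Utrn took place 3. With the shortest transcript, the direction turned for Dmd minus Utrn (-0.58), Dag1 minus Sgca (0.74), Dysf minus Dmd (-1.53) and Dysf minus Myof (-0.047). The shortest transcripts of Utrn, Dag1 and Sgca hold 560, 76 and 300 coding nt, against 10290, 2679 and 1161 nt in their longest. For Utrn and Dag1 this is not a whole number of codons. Whether any reads came from these short transcripts was not tested. With the median transcript it turned for Dysf minus Dmd (-0.31), and with the coding sequence for Sgca minus Sgcb (-0.35). These shifts come from the lengths alone, since the counts are the same. Leaving out genes with a mean under 1 log2 CPM lowered the share of genes below a member by 0.395 to 9.99 percentage points, and protein-coding genes alone by 0.03 to 0.877.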
